A study of Mus musculus with 4 samples.

Results

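The cells described here are effector-like CD4 T cells without Foxp3 from the inflamed mouse colon. They were chosen on their own UMI counts (a UMI, or unique molecular identifier, marks 1 captured transcript). A cell had at least 200 genes and under 20% mitochondrial UMIs, at least 2 UMIs of Cd3e, Cd3d and Cd3g together, and at least 1 UMI of Cd4. It had no UMI of Foxp3, Lef1, Cd8a, Cd8b1 or Trdc, and none of Ngp, Csf3r, Csf1r, Cd79a, Ms4a1 or C1qa. S100a8 and S100a9 made up under 0.5% of its UMIs. The rule found 295 cells among 43432 that passed the gene and mitochondrial limits and 45229 deposited, with 39, 73, 93 and 90 cells in samples 1 to 4.

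Single-cell RNA sequencing was run on CD45+ leukocytes of the colonic lamina propria of mice with acute colitis. All 4 samples came from mice given 2% dextran sulfate sodium (DSS) in drinking water for 7 days, with tissue taken on day 8, and each sample was a mixture of 3 mice. The mice were 10 weeks old by the labels, while the published description of the experiment gives a younger age. The series holds AhR-null (AhR-/-) and wild type (AhR+/+) mice, but the sample labels do not say which sample had which genotype, so samples are named 1 to 4, no 2 samples are treated as replicates of a genotype, and samples are not tested against each other. AhR is the aryl hydrocarbon receptor, a ligand-activated transcription factor. Deposited totals were 113806334, 135516016, 101579112 and 72509408 UMIs.

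Naive CD4 T cells recirculate through blood and lymph nodes and keep the transcription factors LEF1 and TCF1 (encoded by Tcf7). After activation they take up helper programs. In the type 1 program T-bet (Tbx21) drives interferon gamma, and in the type 17 program RORα accompanies interleukin-17 under the influence of interleukin-23. In the colon, type 17 cells support barrier defence and both programs can take part in colitis, while regulatory T cells with Foxp3 restrain them.

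The 3 comparison gates were built from the same rule. Foxp3-positive CD4 cells (276) had at least 1 Foxp3 UMI with Lef1 left free, so that some of them differed from the gated cells in Lef1 as well, Lef1-positive CD4 cells (328) had at least 1 Lef1 UMI and no Foxp3, and CD8 cells (597) had Cd8a or Cd8b1 in place of Cd4. Since the gates were set on 17 genes, those genes are given only as description and were left out of every test. B cells (3343 cells with at least 2 Cd79a UMIs, at least 1 Ms4a1 UMI and no Cd3 or Trdc UMI) served as the background for shares of cells with a UMI.

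As a share of all kept cells, the gate was smallest in sample 1, at 0.355% with a 95% exact binomial interval from 0.253 to 0.485%. Sample 2 had 0.552% (interval 0.433 to 0.694%). Samples 3 and 4 had the higher shares, 0.833% (0.673 to 1.02%) and 1.12% (0.899 to 1.37%). The intervals of samples 1 and 2 overlapped, as did those of samples 3 and 4, and those of samples 2 and 3. Sample 1 lay below samples 3 and 4, and sample 2 lay below sample 4. These intervals cover counting error only. Over the CD4 cells of the 3 CD4 gates the shares were 22.7, 36.9, 34.3 and 34.9%, lowest in sample 1. The interval of sample 1 (16.6 to 29.7%) lay below that of sample 2 (30.1 to 44%). It overlapped those of samples 3 (28.7 to 40.3%) and 4 (29.1 to 41%). Sample 2 held most CD8 cells, 410 of 597, and the lowest share of gated cells among cells with at least 2 Cd3 UMIs (2.82, 1.44, 5.65 and 5.23% in samples 1 to 4). The plot of shares and gate sizes shows both scales.

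**Figure D1:**
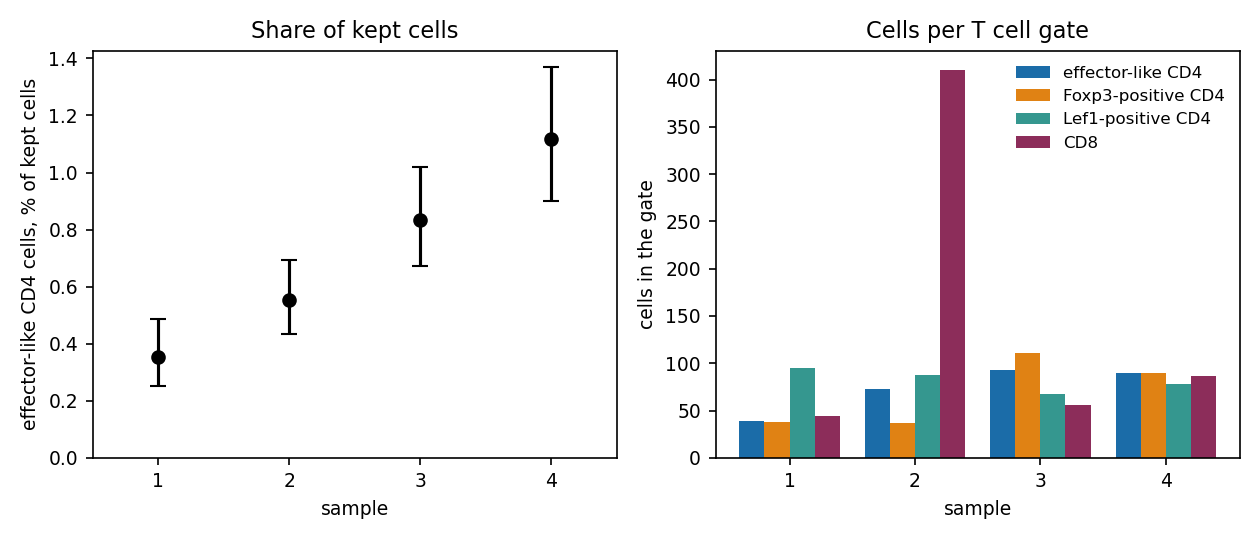
The left panel plots effector-like CD4 cells as a percent of kept cells in each of the 4 samples, with 95% exact binomial intervals, and the right panel the number of cells in each T cell gate by sample. The share ran from 0.355% in sample 1 to 1.12% in sample 4, and the tallest bar is the 410 CD8 cells of sample 2.

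The limits of the rule matter for so small a gate. Of the 295 cells, 33 had exactly 2 Cd3 UMIs and 110 exactly 1 Cd4 UMI. Just outside stood 35 cells with 1 Cd3 UMI, 45 with 1 Foxp3 UMI and 84 with 1 Lef1 UMI, beside 134 with at least 2 Foxp3 UMIs and 244 with at least 2 Lef1 UMIs. Leaving out cells with Foxp3 took 3300 cells to 2176, leaving out those with Lef1 took these to 829, and leaving out those with UMIs of other lineages took 691 to 298. Among cells that failed by the other-lineage genes alone, 64 had 1 such UMI and 234 had 2 or more. The gated cells carried 306966, 400282, 929057 and 672578 UMIs, with medians of 6534, 4718, 8021 and 6516 a cell. Foxp3-positive CD4 cells were deeper, with medians of 8622.5, 7750, 10867 and 10474.5, and a cell of low depth can miss a Foxp3 UMI.

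The label effector-like goes with Icos, an inducible costimulatory receptor, and Cd44, a hyaluronan receptor that activated T cells keep. Both were named as markers together with the label, so their levels describe the gate and are no independent check, although the rule itself did not use them. Icos stood at 1140, 1287, 786 and 843 CPM (the gene's UMI count scaled to 1000000 UMIs of a sample's gated cells), against a median over samples of 152 in all kept cells. Cd44 stood at 902, 729, 747 and 874 CPM, below the 1541 of all kept cells, where myeloid cells carry it. A UMI of Icos was in 87.8% of the gated cells and in 3.71% of B cells, and one of Cd44 in 88.8% and 50.2%, at medians of 4718 to 8021 UMIs in the gated cells and 4380 to 5616.5 in B cells. Both genes were found in 79% of the gated cells. The α chain constant region of the T cell receptor, Trac, stood at 378, 342, 349 and 235 CPM. The costimulatory receptor Cd28 was found in 95.3% of cells (6.28% of B cells), and the γδ receptor constant gene Tcrg-C1 stood at 0, 5, 11.8 and 13.4 CPM. Tcf7, a gene of naive and memory cells, was also present at 303, 297, 177 and 216 CPM, and neither Icos nor Cd44 passed the test against the Lef1-positive cells described further on, so effector-like is used here as the name of the gate.

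Type 1 genes were found in all samples. Tbx21, which encodes T-bet, stood at 74.9, 79.9, 100 and 201 CPM, highest in sample 4, with a UMI in 34.6% of cells (2.39% of B cells). Il12rb2, the inducible chain of the interleukin-12 receptor, stood at 91.2, 700, 113 and 265 CPM and was highest in sample 2, where 29 of 73 cells held a UMI. Stat4, which relays interleukin-12 signals, stood at 733, 1289, 792 and 1219 CPM. Ifng stood at 202, 50, 46.3 and 58 CPM, and a UMI of it was in 20% of cells (1.56% of B cells). The high value of sample 1 came from 1 cell with 77.4% of its Ifng UMIs, and without that cell the level was 46.8 CPM, close to the other samples.

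The type 17 program was carried by fewer cells. Il17a stood at 74.9, 515, 53.8 and 321 CPM, with 95% Poisson intervals of 47.5 to 112, 447 to 590, 39.9 to 71 and 280 to 367 that cover counting error only. It came from 3, 8, 6 and 8 cells, and the cell with most Il17a UMIs held 69.6, 63.1, 50 and 83.3% of them, so the order of the samples rests on single cells. Il17f stood at 108, 92.4, 25.8 and 96.6 CPM in 6, 3, 3 and 3 cells. Il23r, the receptor chain for interleukin-23, was more even, at 368, 255, 224 and 177 CPM in 12, 16, 16 and 15 cells, which is 20% of all gated cells (0.748% of B cells). Rora, which encodes RORα, was near universal, at 2557, 1834, 1544 and 2322 CPM with a UMI in 91.9% of cells (9.69% of B cells). Il22, another type 17 cytokine gene, stood at 35.8, 30, 3.23 and 8.92 CPM.

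The promoters of Il17a and Il17f are shown because these neighbouring cytokine genes are the type 17 genes that were called higher than in Foxp3-positive cells, as described further on. The sequences run 5′ to 3′ on the gene's own strand, from 250 bases before to 50 after the start given by RefSeq on GRCm38.p6, at chr1:20730655-20730954 (plus strand) for Il17a and chr1:20784221-20784520 (minus strand) for Il17f. Capitals mark AGGTCA, a core sequence bound by RORα, on either strand. Il17a has 1 match, on the opposite strand 120 bases before the start, and Il17f has 1 on the same strand 58 bases before it. Of 32851 promoters of this length, 5340 (16.3%) hold the motif on either strand, so a match is a description and not a binding site.
Il17a: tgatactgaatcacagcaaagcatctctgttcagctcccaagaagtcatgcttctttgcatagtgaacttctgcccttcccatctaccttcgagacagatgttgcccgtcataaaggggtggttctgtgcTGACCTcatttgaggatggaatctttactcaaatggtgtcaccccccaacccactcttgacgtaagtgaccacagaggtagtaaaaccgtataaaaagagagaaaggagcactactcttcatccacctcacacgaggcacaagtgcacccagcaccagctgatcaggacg
Il17f: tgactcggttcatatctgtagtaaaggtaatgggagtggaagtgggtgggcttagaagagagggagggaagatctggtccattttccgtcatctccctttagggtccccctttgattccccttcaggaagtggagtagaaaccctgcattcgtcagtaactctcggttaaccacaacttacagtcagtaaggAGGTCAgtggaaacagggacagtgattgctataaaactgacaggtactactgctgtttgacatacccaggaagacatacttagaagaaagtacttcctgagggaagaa

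Genes of other helper programs were found as well. Gata3, which T cells express widely and type 2 cells most, stood at 84.7, 57.5, 172 and 226 CPM, with a UMI in 39% of cells (1.91% of B cells), while the type 2 cytokine genes Il4, Il5 and Il13 together were found in 6 cells. Il9 had no UMI, and 0 of 295 cells allows a share of up to 1.02% of cells with a captured UMI, which is no limit on cells that express the gene. The follicular helper genes Cxcr5 and Il21 were found in 49 cells, Cxcr5 at 39.1, 92.4, 8.61 and 13.4 CPM and Il21 at 9.77, 17.5, 14 and 23.8 CPM. B cells express Cxcr5 themselves (54.4% of B cells with a UMI), which makes the 11.2% of gated cells hard to set against a background. The surface ligands of helper cells were much more abundant in the gated cells than in all kept cells. Tnfsf8, the ligand of CD30, stood at 906, 824, 722 and 998 CPM against a kept-cell median of 48.2, and Cd40lg, the ligand of CD40 on B and myeloid cells, at 150, 152, 77.5 and 134 CPM against 8. The plot of levels by sample and gate sets these genes beside the comparison gates.

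**Figure D2:**
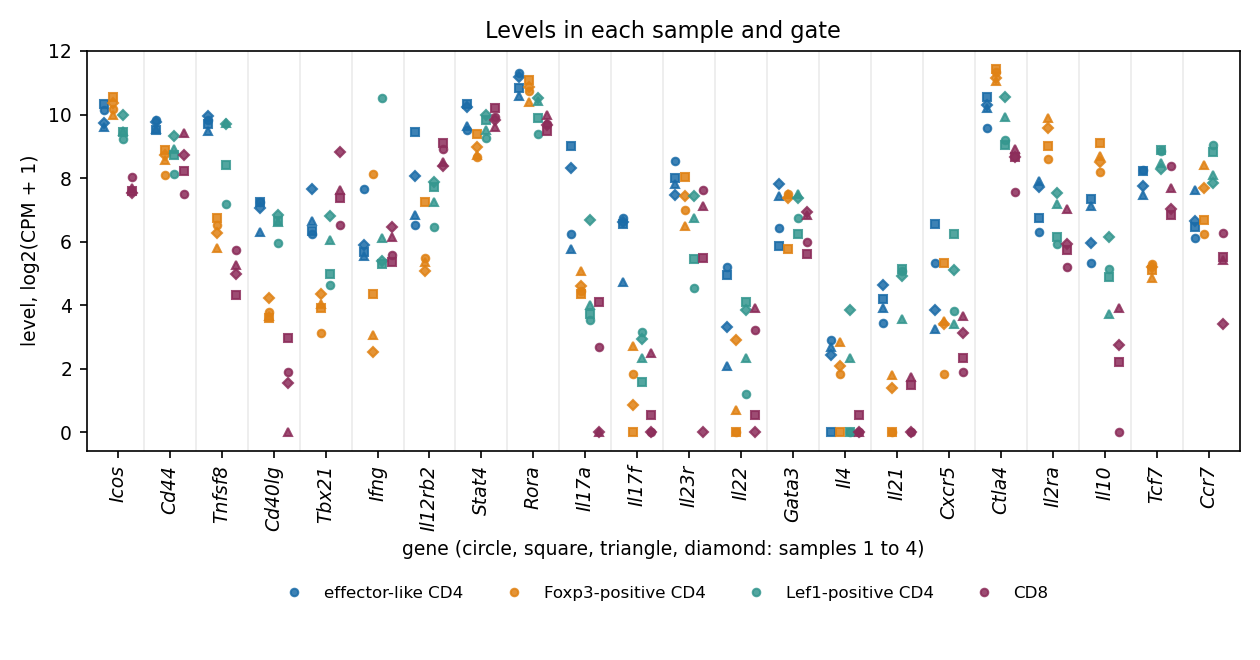
Levels of helper, activation and regulatory genes as log2(CPM + 1) in each of the 4 samples (marker shape) and 4 gates (colour). Tnfsf8, Cd40lg and Il17f in effector-like CD4 cells lie above the Foxp3-positive and CD8 cells in every sample, while Icos overlaps with the Foxp3-positive cells.

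Within the gate, Ifng or Tbx21 was rarely found in the same cell as Il17a, Il17f or Il23r, although other genes of both lists, such as Rora and Stat4, were widely shared. A UMI of Tbx21 or Ifng was in 127 cells, 33.3, 28.8, 41.9 and 60% by sample. Ifng and an interleukin-17 gene met in 1 cell, where the product of the shares gives 6.27 cells, and Tbx21 and Il23r in 4 (19.4). By contrast, 26 of the 32 cells with Il17a or Il17f also held Il23r (6.92 by the product), and Tbx21 and Ifng met in 34 (21.6). Gata3 was found with Tbx21 or Ifng in 58 cells, against 52.6 by the product. Cells of 1 sample are not independent and depth differs between cells, so these counts have no test.

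The 31 cells with Il17a or Il17f and no Ifng were set beside the 58 with Ifng and neither interleukin-17 gene. The test planned for these sides needed at least 10 cells on each side in at least 3 samples. It was not run, because the interleukin-17 side had 8, 8, 7 and 8 cells in samples 1 to 4. The Ifng side had 7, 11, 19 and 21, so the sums draw unequally on the samples. The summed levels stand as a description, with 95% Poisson intervals that cover counting error only. On the interleukin-17 side, Il23r stood at 887 CPM (786 to 998) against 7.34 (2 to 18.8), and Il1r1, a receptor for interleukin-1, at 251 CPM (198 to 313) against 7.34 (2 to 18.8). Furin, a protease that T cells induce, stood at 1392 CPM (1264 to 1530) against 562 (500 to 628), and Rora at 2906 CPM against 1599. Ccr6, a homing receptor of type 17 cells, had 11 UMIs on this side and 0 on the other.

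On the Ifng side, Tbx21 stood at 165 CPM (133 to 203) against 19.3 (7.08 to 42) and Il12rb2 at 556 CPM (495 to 622) against 12.9 (3.5 to 32.9). The chemokine gene Ccl5 stood at 1167 CPM (1078 to 1262) against 28.9 (13.2 to 54.9), and Nkg7, a cytotoxic granule gene, at 369 CPM (320 to 424) against 9.64 (1.99 to 28.2). The granzyme gene Gzmk had 51 UMIs in 26 cells here and 0 on the interleukin-17 side. The marker genes of the label were closer, with Icos at 934 CPM against 1273 and Cd44 at 826 CPM against 1090, and Tcf7 at 156 CPM against 141 had overlapping intervals (125 to 193 and 103 to 190). The plot of cytokine-positive cells shows this pattern.

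**Figure D3:**
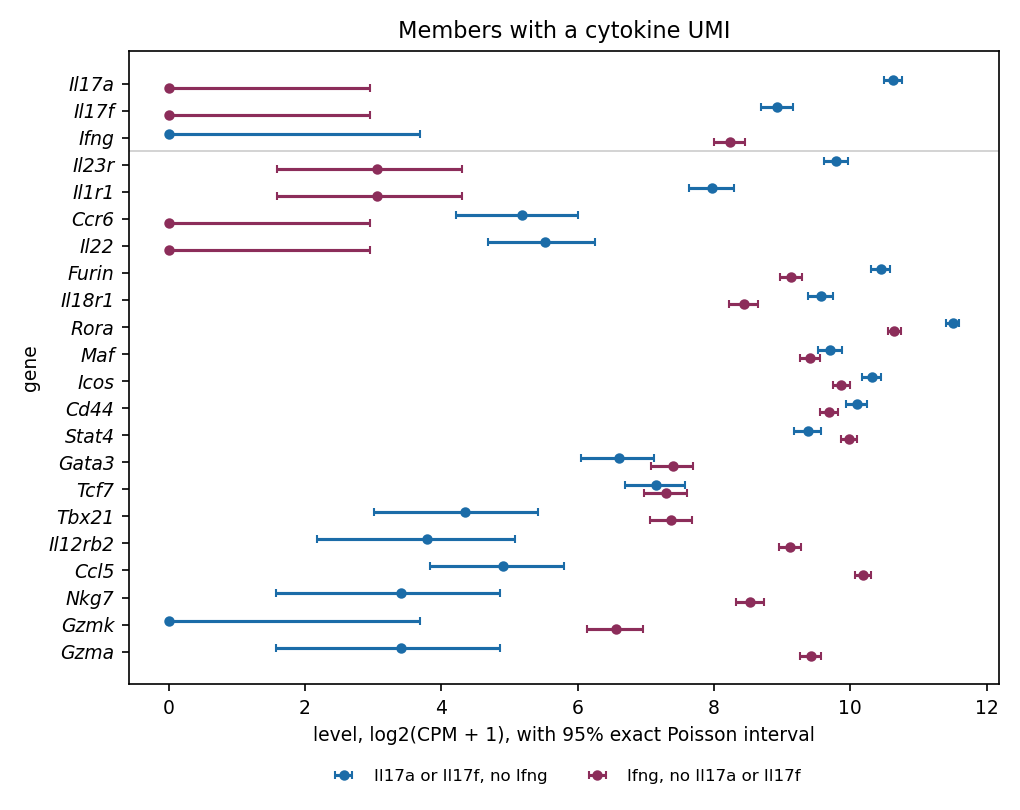
Levels as log2(CPM + 1) with 95% exact Poisson intervals in 31 effector-like CD4 cells with Il17a or Il17f and no Ifng, and in 58 with Ifng and neither interleukin-17 gene, summed over 4 samples. Il23r and Il1r1 lie far apart in one direction and Il12rb2, Ccl5 and Nkg7 in the other, whereas the Tcf7 intervals overlap.

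Effector-like CD4 cells were then compared with Foxp3-positive CD4 cells, the regulatory T cells of the same tissue, by edgeR's quasi-likelihood test on UMI sums per sample and gate with the sample as a block. A call needed a Benjamini-Hochberg adjusted p under 0.05 and at least a 2-fold difference. Of 7338 genes tested, 191 were higher (2.6%) and 173 lower (2.36%) in the effector-like cells. Among the higher genes were the helper ligands, Tnfsf8, whose log2 fold was 3.57 ± 0.41 (SE, 4 samples, adjusted p = 2.17e-05 by edgeR), and Cd40lg, whose log2 fold was 3.17 ± 0.29 (adjusted p = 2.45e-06 by edgeR). In the Foxp3-positive cells Tnfsf8 stood at only 90.5, 107, 54.8 and 77.2 CPM. Both ligands were called in every alternative in which they were tested.

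Of the type 1 list, 4 of 12 genes tested were higher and 1, Il12rb1, lower. Tbx21 was higher by 3.10 ± 0.24 on the log2 scale (adjusted p = 4.67e-07 by edgeR), with 7.75, 14.1, 15.4 and 19.3 CPM in Foxp3-positive cells. Il12rb2, Stat4 and Il18rap were also higher, with log2 folds of 2.16, 1.06 and 1.13. Ifng did not pass, with a log2 fold of 1.35 (95% interval -0.12 to 2.82, adjusted p = 0.257 by edgeR). Foxp3-positive cells of sample 1 stood at 282 CPM of Ifng, and without sample 1 Ifng was called, with a log2 fold of 2.73 (adjusted p = 0.00182 by edgeR). It was also called with no filter on low counts (1.36) and without cells of 2 or more other-lineage UMIs, whether Pecam1 was counted (2.83) or not (3.19), so its status was not stable. Leaving out sample 4 took Stat4 to a log2 fold of 0.95, under the fold limit, and Il18rap to 0.99 (adjusted p = 0.163 by edgeR). Il12rb1, with a log2 fold of -1.09 (adjusted p = 0.0491 by edgeR), kept its call in only 6 of 15 alternatives and lost it without any 1 of the 4 samples (adjusted p = 0.0827 to 0.154 by edgeR).

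Of the type 17 list, Il17f and Il17a were higher among 11 genes tested and none lower. Il17f was higher by 4.50 ± 0.58 on the log2 scale (adjusted p = 8.87e-05 by edgeR), a fold that rests on few UMIs, since Foxp3-positive cells stood at 2.58, 0, 5.54 and 0.804 CPM. Il17a was higher by 2.79 ± 0.57 (adjusted p = 0.00423 by edgeR). For Il17a the call was lost when cells with 2 or more UMIs of other lineages were removed, where its log2 fold was 0.93 (adjusted p = 0.537 by edgeR), and held when Pecam1 was not counted in that removal, at 2.37 (adjusted p = 0.00749 by edgeR). Rora did not separate the gates, with a log2 fold of 0.28 (95% interval -0.14 to 0.70), nor did Il23r at 0.70 (-0.49 to 1.89), which regulatory cells of the colon can also carry. The cytotoxic and NK-type list had 6 of 13 genes higher and none lower, among them the chemokine gene Ccl5 at a log2 fold of 2.20, Nkg7 at 1.63, the death ligand gene Fasl at 3.64 and the protease gene Ctsw at 3.09. Gzmk had 0 UMIs in at least 1 Foxp3-positive library, where its median was 0.402 CPM, and stood at 19.5, 27.5, 60.3 and 68.4 CPM in the effector-like cells. The follicular helper list had 4 of 11 higher and 1 lower, with the repressor gene Bcl6 at 1.42 and the inhibitory receptor gene Btla at 1.82 among the higher. Tcf7, fixed in the naive list, was higher by 2.85 ± 0.26 on the log2 scale (adjusted p = 2.99e-06 by edgeR).

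The regulatory list had 0 of 14 genes higher and 11 lower. This list holds genes that accompany Foxp3, on which the gates were split, so its count describes the split. The chains Il2ra (interleukin-2 receptor α) and Ctla4 (an inhibitory receptor) were lower by log2 folds of -2.03 and -1.05, the cytokine gene Il10 by -1.97 and the granzyme gene Gzmb by -2.65. Ctla4 nevertheless stayed at 762, 1501, 1172 and 1268 CPM in the effector-like cells, and without sample 1 its log2 fold was -0.83 (adjusted p = 0.0524 by edgeR). The proliferation list had 0 of 10 higher and 3 lower, with Mki67 at a log2 fold of -1.34 and Top2a at -1.14. The Mki67 call was lost without sample 2, 3 or 4, at log2 folds of -1.18, -1.42 and -1.25. Top2a kept its call in 13 of 17 alternatives and Cdk1, also lower, in 12 of 15. Of 15 tissue residence and homing genes tested, 2 were higher and 5 lower. Itga1, an integrin chain of resident cells, was higher by a log2 fold of 2.69, and the chemokine receptor gene Ccr2 lower by -1.79.

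Icos showed a log2 fold of -0.25 against Foxp3-positive cells (95% interval -0.59 to 0.09, adjusted p = 0.373 by edgeR). Cd44 was higher by 1.18 ± 0.25 (adjusted p = 0.00493 by edgeR), but by 0.92 without sample 1, under the fold limit. The Foxp3-positive cells were also the deeper ones. With every cell thinned to 1000 UMIs, 68 genes were higher and 54 lower among the 2300 that could then be tested. Leaving out sample 4 gave 111 higher and 67 lower.

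**Figure D4:**
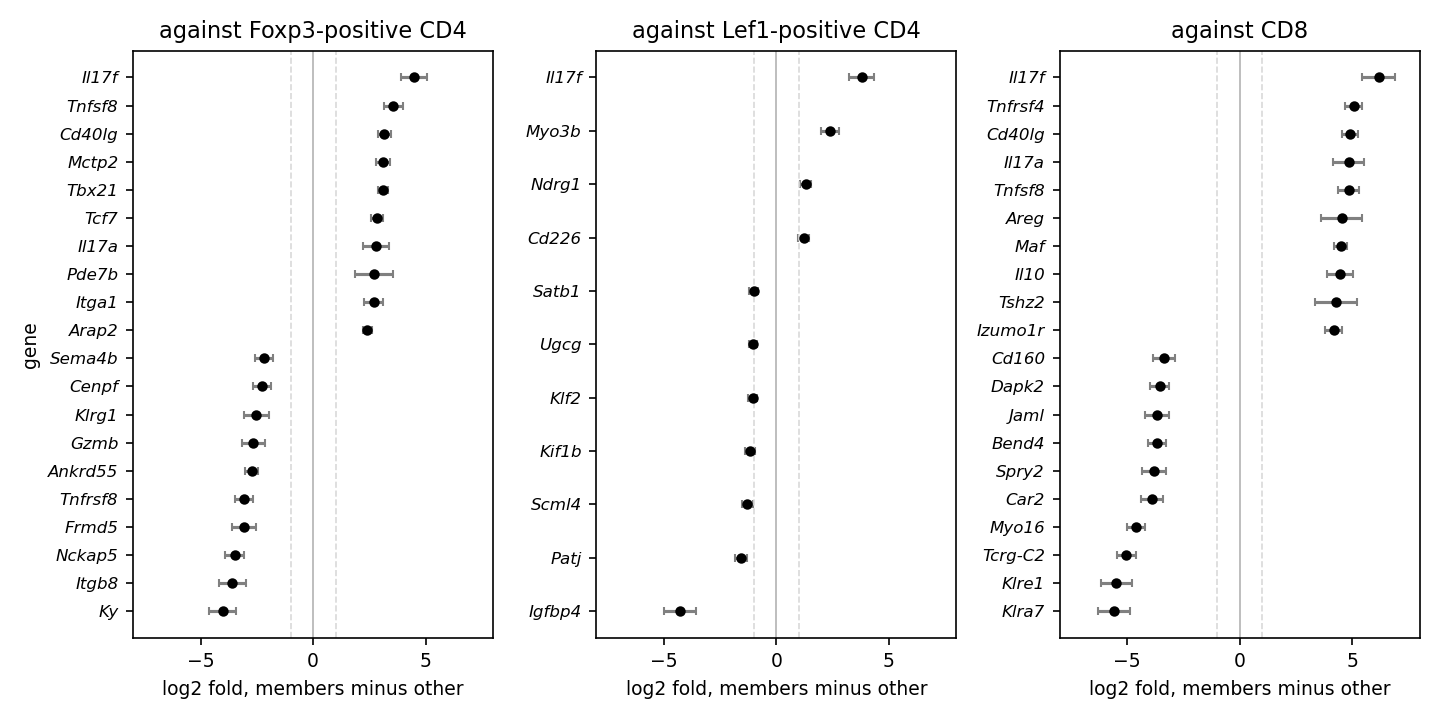
Log2 fold changes (effector-like CD4 minus the other gate, x axis) of the named called genes with bars of ± SE, in 1 panel for each of the 3 comparison gates. Il17f lies to the right in all 3 panels, at 4.50, 3.78 and 6.18.

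Lef1-positive CD4 cells, the cells with a naive or central memory gene, gave the fewest calls. Only 4 genes were higher (0.0545% of those tested) and 9 lower (0.123%) in the effector-like cells, with 716 at an unadjusted p under 0.05, and DESeq2's Wald test called 8 and 10. Il17f was higher by 3.78 ± 0.54 on the log2 scale (adjusted p = 0.0122 by edgeR), with 7.89, 2.04, 4.1 and 6.64 CPM in Lef1-positive cells. Myo3b, a myosin gene, was higher by 2.39, Ndrg1, a stress-induced gene, by 1.30 and Cd226, an activating adhesion receptor gene, by 1.21 on the log2 scale. Among the lower genes were Klf2, which maintains recirculation, at -1.04 ± 0.20 (adjusted p = 0.0328 by edgeR), and Satb1, a chromatin organiser of T cells, whose adjusted p was 0.0423 by edgeR. Satb1 stood at 1433, 2016, 1392 and 1705 CPM in the effector-like cells against 3958, 4544, 2480 and 2369 CPM in the Lef1-positive cells, lower in each sample.

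Against the Lef1-positive cells the naive and recirculation list had 0 of 8 genes higher and 3 lower (Klf2, Satb1 and Igfbp4). The gates were split on Lef1, itself a gene of naive cells, so the count of that list describes the split. The type 17 list had 1 of 11 higher, and none of the other lists had a called gene. Tbx21 had a log2 fold just under the limit of 1 (95% interval 0.61 to 1.38, adjusted p = 0.0368 by edgeR). The activation genes did not pass, with log2 folds of 0.40 for Icos (0.06 to 0.74) and 0.90 for Cd44 (0.42 to 1.38), and Tcf7 had a log2 fold of -0.71. The naive cell homing receptor gene Ccr7 stood at 68.4, 87.4, 196 and 99.6 CPM in the effector-like cells, with a log2 fold of -1.72 that did not pass (adjusted p = 0.119 by edgeR). These calls were fragile. Without sample 1 edgeR called 0 genes in either direction, with 544 at an unadjusted p under 0.05. Without sample 2 there were 1 higher and 0 lower, without sample 3 also 1 higher and 0 lower, and without sample 4 there were 4 higher and 5 lower, with 1 of the 4 among those called with all samples. The smaller number of calls than against the Foxp3-positive cells was not tested as a difference.

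Against CD8 cells, 280 genes were higher (3.82%) and 184 lower (2.51%) in the effector-like CD4 cells. Most CD8 cells came from sample 2, but each sample gave 1 sum. Without sample 2 there were 211 higher and 147 lower, of which 184 and 126 were among the genes called with all samples. The type 17 list had 7 of 11 genes higher and none lower, with the transcription factor gene Maf at 4.49 ± 0.28 (adjusted p = 1.62e-08 by edgeR) and Rora at 1.30 ± 0.22 (adjusted p = 0.000505 by edgeR) on the log2 scale. Maf stood at 430, 757, 776 and 1041 CPM, against 35.7, 33.5, 16.3 and 46.1 in CD8 cells, without overlap. Il17f was near the floor in CD8 cells, at 0, 0.452, 4.64 and 0 CPM, so the size of its fold rests on few UMIs. The follicular helper list had 8 of 11 higher and none lower. The activation list had 7 of 11 higher and none lower, led by Cd40lg at a log2 fold of 4.89 and Tnfsf8 at 4.84, with Icos at 2.28 ± 0.19 (adjusted p = 4.45e-07 by edgeR). Cd44 was higher by 1.16 on the log2 scale, but by 0.78 without sample 1 (adjusted p = 0.0502 by edgeR).

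The cytotoxic and NK-type list had 0 of 13 genes higher and 9 lower than in CD8 cells. These gates were split on Cd4 against Cd8a and Cd8b1. Counts of lists that go with CD4 or CD8 cells, such as this one and the follicular helper and activation lists, therefore describe in part that split. Ccl5 was lower by -3.14 ± 0.31 on the log2 scale (adjusted p = 1.92e-06 by edgeR), although it stood at 277, 907, 454 and 697 CPM in the effector-like cells, and Nkg7 was lower by -1.81. The granzyme gene Gzma was lower by -3.05, and its 732 CPM in sample 2 came mainly from 1 cell, without which the level was 107 CPM. The residence integrin genes Itgae and Itga1 were lower by log2 folds of -2.86 and -2.35. The innate-like list had 0 of 6 higher and 4 lower, among them Cd160, a receptor gene of intraepithelial lymphocytes, at -3.36. The T cell receptor list had 4 of 13 higher and 2 lower. Among the lower was Tcrg-C2, a γ chain constant gene, at -5.03. It stood at 30.2, 86.4, 137 and 144 CPM in CD8 cells, against 0, 0, 3.23 and 7.43 in the effector-like cells. Which kinds of T cell made up the CD8 gate was not tested. Type 1 genes were mixed, with 2 of 12 higher and 1 lower. Tbx21 was lower by a log2 fold of -0.93 that did not reach 2-fold (adjusted p = 0.00161 by edgeR), and Ifng had a log2 fold of -0.01 (95% interval -1.40 to 1.38).

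Levels of part of the AhR pathway list are given here for every sample, and those of other members, such as Arnt and Il10ra, are not. Ahr itself stood at 147, 177, 116 and 138 CPM in the effector-like cells, with UMIs in 13, 30, 39 and 29 cells. A UMI count does not say which part of the transcript it came from, so the level checks no genotype. Odc1, the rate-limiting enzyme of polyamine synthesis, stood at 922, 884, 184 and 233 CPM in samples 1 to 4, with 95% Poisson intervals of 818 to 1036, 795 to 981, 158 to 214 and 198 to 273. Tiparp, an AhR-induced ADP-ribosyltransferase, stood at 336 (274 to 407), 230 (185 to 282), 82.9 (65.4 to 104) and 107 (83.8 to 135) CPM. Both genes were high in samples 1 and 2 and low in samples 3 and 4, without overlap of the counting intervals between these pairs. The repressor gene Ahrr had 1, 15, 0 and 0 UMIs, and Cyp1a1 and Cyp1b1 had none. Itga4, an integrin chain for homing, ran the other way, at 264, 330, 748 and 816 CPM. No test of these sample differences was made, because the labels give no groups.

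Odc1 ran the same way in the other gates. It stood at 899, 1108, 294 and 252 CPM in Foxp3-positive cells, 472, 472, 182 and 144 in Lef1-positive cells, 294, 199, 90.6 and 115 in CD8 cells and 275, 321, 110 and 114 in all kept cells, in samples 1 to 4. The log2 range of Odc1 over samples was 2.32 in the effector-like cells, against a median of 0.647 over the 2567 genes of at least 100 CPM in a sample, and 56 of these had a larger range. Between gates, Odc1 was higher than in CD8 cells by 1.53 ± 0.20 on the log2 scale (adjusted p = 4.08e-05 by edgeR) and did not pass against Foxp3-positive cells (-0.20, 95% interval -0.55 to 0.15) or Lef1-positive cells (0.66, 0.30 to 1.03). Without the replicate block the Odc1 call against CD8 cells was lost (adjusted p = 0.132 by edgeR). Of 6 AhR pathway genes tested, no other was called in any of the 3 comparisons.

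**Figure D5:**
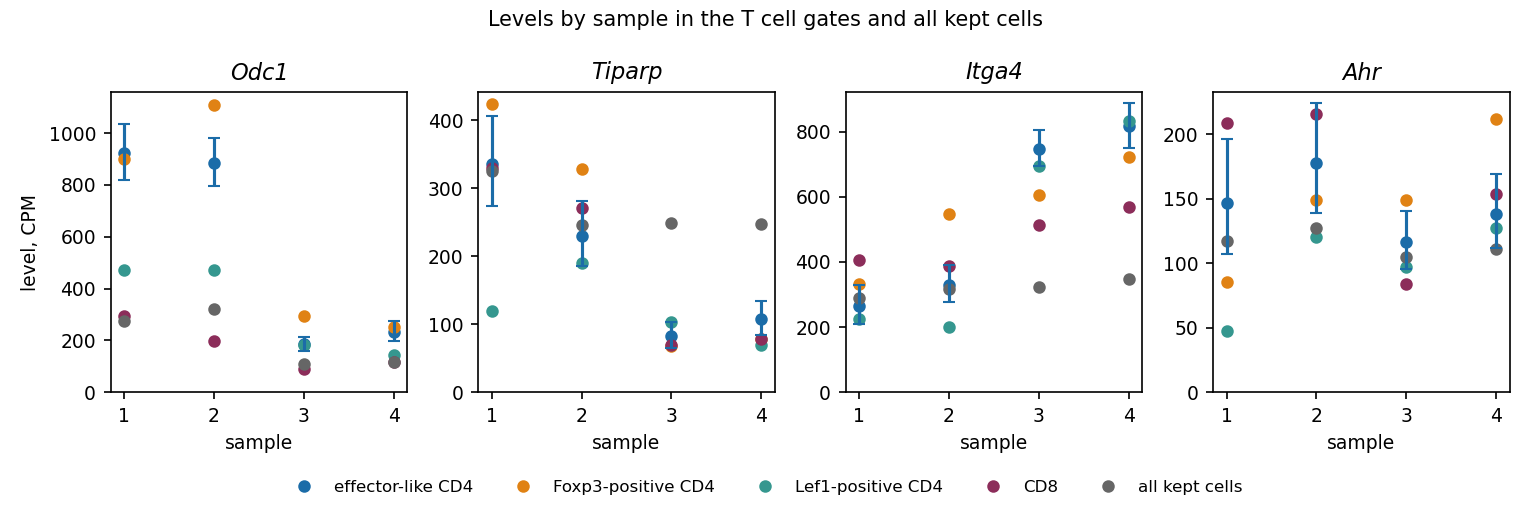
Levels in CPM of Odc1, Tiparp, Itga4 and Ahr in samples 1 to 4, in the 4 T cell gates and all kept cells (colours). Odc1 is higher in samples 1 and 2 than in samples 3 and 4 in each gate, Itga4 in effector-like cells runs the other way, and Ahr in effector-like cells stays between 116 and 177.

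The promoters of Odc1 and Tiparp are shown because their levels moved together between samples. They are given as for the interleukin-17 genes (RefSeq, GRCm38.p6), at chr12:17544623-17544922 (plus strand) for Odc1 and chr3:65528197-65528496 (plus strand) for Tiparp. Capitals mark GCGTG, the core of the element bound by AhR with ARNT, or its reverse complement. Odc1 has 2 matches on the same strand, 179 and 157 bases before the start, and 1 on the opposite strand 101 bases before it, and Tiparp has 1 on the opposite strand 170 bases before it. The motif is in 10639 of 32851 promoters (32.4%) on either strand, so a match alone does not show binding. The cause of the shared pattern between samples was not tested.
Odc1: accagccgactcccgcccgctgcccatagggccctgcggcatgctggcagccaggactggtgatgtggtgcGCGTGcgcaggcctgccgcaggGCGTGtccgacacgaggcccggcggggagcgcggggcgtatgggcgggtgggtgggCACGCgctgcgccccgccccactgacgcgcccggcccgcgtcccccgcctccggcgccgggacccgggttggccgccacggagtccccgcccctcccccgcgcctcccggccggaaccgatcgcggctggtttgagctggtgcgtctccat
Tiparp: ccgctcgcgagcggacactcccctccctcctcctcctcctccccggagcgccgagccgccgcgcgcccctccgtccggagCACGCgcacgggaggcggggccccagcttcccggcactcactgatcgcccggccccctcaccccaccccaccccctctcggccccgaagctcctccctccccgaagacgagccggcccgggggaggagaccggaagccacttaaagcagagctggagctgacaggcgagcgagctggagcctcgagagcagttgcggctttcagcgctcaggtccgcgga

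Transcripts of other cell types were present in the gated cells, although the rule had removed 6 of their markers. The myeloid, B cell and neutrophil lists lay below all kept cells in every sample, whereas the innate lymphoid list did not in samples 1, 3 and 4 and the stromal list did not in sample 1. Summed over each list, the monocyte and macrophage genes stood at 511, 977, 1115 and 1038 CPM against a kept-cell median of 7731, led by Cd74. The dendritic cell genes stood at 332, 542, 872 and 641 CPM against 2944, led by H2-Aa with Siglech at 0. The B cell and plasma cell genes stood at 267, 1134, 196 and 144 CPM against 6017. In sample 2 the immunoglobulin gene Igkc stood at 742 CPM and was near the same level in the other gates of that sample, at 706, 750 and 766 CPM. The neutrophil list stood at 192, 172, 228 and 266 CPM against 4405, and the mast cell and basophil list at 309, 20, 9.69 and 10.4 CPM against 356, with Tpsb2 at 0. In sample 1 the mast cell list was near the level of all kept cells of that sample (319 CPM), and the mast cell protease gene Mcpt2, which is not in that list, stood at 3684 CPM, with 99.9% of its UMIs in 1 cell. The innate lymphoid list, at 212, 120, 320 and 342 CPM against 242, was led by Gata3, which T cells also express. The stromal and epithelial list stood at 538, 342, 497 and 440 CPM against 668, nearly all of it Pecam1, which T cells can express, with Cdh5 at 0.

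Some of these transcripts moved with the gate comparisons. H2-Aa was higher than in Foxp3-positive cells by a log2 fold of 1.52 (adjusted p = 0.0356 by edgeR) and Pecam1 by 1.09, and both were higher than in CD8 cells, H2-Aa by 1.76 and Pecam1 by 2.63. Against Foxp3-positive cells the monocyte gene Ly6c2, which T cells can also express, was higher by 1.82 and the immunoglobulin gene Ighm lower by -1.61. Against CD8 cells Ly6c2 was lower by -1.68, while Cd74, H2-Ab1 and the decoy receptor gene Il1r2 were higher by 1.71, 1.45 and 2.01. These calls were often lost, and were kept in 9 of 15 alternatives for Ly6c2 against Foxp3-positive cells and, against CD8 cells, in 13 of 16 for Ly6c2, 12 of 18 for Cd74, 9 of 18 for H2-Ab1 and 12 of 17 for Il1r2. Ly6c2 against Foxp3-positive cells was at 0.96 without sample 4 (adjusted p = 0.333 by edgeR), and its call was lost without sample 1 or 3 as well, as were those of Ly6c2 against CD8 cells. Cd74 and H2-Ab1 lost theirs without sample 3 or 4, Il1r2 without sample 2, 3 or 4, and Ighm without sample 4 (-1.50, adjusted p = 0.0578 by edgeR). The innate lymphoid list had 3 of 5 genes lower than in CD8 cells, Klre1, Kit and Eomes. No gene of these lists was called against the Lef1-positive cells. The H2-Aa call against Foxp3-positive cells was lost without sample 1 (1.54, adjusted p = 0.0628 by edgeR) or 4 (1.15, adjusted p = 0.219 by edgeR) and that against CD8 cells without sample 3 (1.26, adjusted p = 0.101 by edgeR) or 4 (1.31, adjusted p = 0.163 by edgeR). Without sample 3, Pecam1 was at 0.98 against Foxp3-positive cells, under the fold limit. With cells of 2 or more other-lineage UMIs removed, neither Pecam1 nor H2-Aa being among the genes counted, the log2 fold of H2-Aa was 0.19 against Foxp3-positive cells (adjusted p = 0.806 by edgeR) and 0.49 against CD8 cells (adjusted p = 0.549 by edgeR), while 206 genes were higher and 212 lower than in Foxp3-positive cells and 282 higher and 191 lower than in CD8 cells. That removal also changed the cells and the genes tested, and the part of other-lineage RNA in these calls was not tested.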

How the data were processed

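Libraries were made with 10x Genomics chemistry. The authors deposited, for each sample, a matrix of raw UMI counts per gene and cell, not normalized. The submitters' processing notes name Cell Ranger 5.0.0, STAR, Seurat and mm10, whereas the matrix headers name Cell Ranger 7.0.1. Whether doublets had been removed is not given in the sources used here. The cells of highest Scrublet score (scanpy 1.11.5) were marked, their number set in advance to 0.8% of cells per 1000 cells in a library, which came to 8.94% of kept cells and 4 of the 295 gated cells (1.36%). They stayed in, and were removed in an alternative. No barcode was shared between gated cells of different libraries, and 4 gated cells had a barcode also found in another library. Each pair of libraries differed beyond counting noise (chi-square per gene of 2.77 to 5 over 8118 genes).

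The members, gene lists and tests were chosen with earlier results of these data known. UMIs were summed per sample and gate (16 sums) and fitted with edgeR 4.0.16 (R 4.3.3, limma 3.58.1) by the quasi-likelihood test, with TMM scaling, edgeR's filter on low counts and the sample as a block, since the same sample gave every gate. The 4 gates shared 1 fit and 1 estimate of spread. p-values were adjusted by the Benjamini-Hochberg method over 7338 genes. Nothing says that the 4 mixtures were independent beyond their labels, so p-values measure the spread between these samples. The fit was also run on simulated data, but the outcome is not given here and no result rests on it. Levels are CPM of the summed UMIs. For shares, cells were also thinned to 1000 UMIs. Intervals are exact binomial or Poisson, at 95%. Named genes are those of the lists plus, per comparison, up to 10 called genes of largest fold in each direction with at least 50 CPM on the higher side, and those of highest level or largest range between samples. Immunoglobulin, receptor segment and unnamed genes were left out of that rule. Alternatives were other cell filters, thinning, DESeq2 1.42.0, no block, 2 gates only and leaving out each sample. The genotype of each sample is not in the labels and was not inferred.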

Additional observations from a re-analysis of the deposited data

Results flagged for a closer look

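Among 157 levels and shares screened for a sample far from the other 3, 7 stood apart (4.46%), and chance alone gives about 1 in 20. Ifng in the effector-like cells was 202 CPM in sample 1 and 46.3 to 58 in the others, and 1 cell held 77.4% of those UMIs. Il17f was 25.8 CPM in sample 3, where 1 of 3 cells held 62.5% of the UMIs, and 92.4 to 108 in the others. Cd83, an activation gene, was 197 CPM in sample 2, from 25 cells, and 52.7 to 58.6 in the others. Pcna, a replication gene, was 222 CPM in sample 3, from 52 cells, and 147 to 156 in the others. Egr1, an immediate early gene, was 32.6 CPM in sample 1 and 61 to 68.9 in the others. The mast cell gene Cpa3 was 163 CPM and the basophil gene Mcpt8 84.7 CPM in sample 1, each from 1 cell, and both were at 0 in the other samples.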

How the results depend on the processing

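No called gene given in the text changed sign under the alternatives that were run, but the balance of calls turned in some, as the counts show. Calls (higher and lower in effector-like cells) were 444 and 405 against Foxp3-positive, 9 and 10 against Lef1-positive and 442 and 284 against CD8 cells with the adjusted p alone. Without the replicate block they were 126 and 88 against Foxp3-positive and 2 and 1 against Lef1-positive cells, with the sample itself the source of the pairing. With the gate applied after thinning to 2000 UMIs they were 12 and 12, 13 and 7, and 78 and 57, in the same order of gates, and with cells thinned to 1000 UMIs 68 and 54, 8 and 13, and 111 and 73. Against Lef1-positive cells, 0 of those 13 and 0 of those 8 higher genes were among the 4 called without thinning, and fewer genes were tested (1765 and 2300). Without cells with 2 or more other-lineage UMIs they were 132 and 77 against Foxp3-positive, 0 and 0 against Lef1-positive (343 genes at an unadjusted p under 0.05, edgeR) and 163 and 89 against CD8 cells, with fewer genes tested (4656). With Pecam1 not counted in that removal, an alternative chosen after seeing the data, they were 206 and 212, 3 and 8, and 282 and 191. With no filter on low counts they were 277 and 269, 74 and 48, and 400 and 297. Against Lef1-positive cells, at least 3 Cd3 UMIs gave 2 and 7, at least 2 Cd4 UMIs 1 and 1, DESeq2's Wald test 8 and 10, and a fit of those 2 gates only 10 and 16. Against Foxp3-positive cells a fit of the 2 gates only gave 178 and 184. Leaving out 1 sample gave 111 to 182 higher and 67 to 176 lower, 0 to 4 and 0 to 5, and 211 to 275 and 147 to 192. The cause of these changes was not tested where fewer cells, genes or samples do not show it.

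The median share of kept cells, 0.693%, was 0.281% without cells with other-lineage UMIs and 0.597% with Pecam1 not counted among them. With at least 2 Cd4 UMIs the shares fell to 0.218, 0.303, 0.6 and 0.67% in samples 1 to 4. The median share of members with an Il17a UMI was 8.29%, and was 5.51% without cells with other-lineage UMIs, 8.02% with Pecam1 not counted and 2.95% in cells thinned to 1000 UMIs. That with an Ifng UMI was 19.2%, and was 23.5% without cells with other-lineage UMIs, 17.5% with Pecam1 not counted, 7.21% with the gate after thinning and 3.67% in thinned cells. Of the named results against CD8, Foxp3-positive and Lef1-positive cells, 1334 of 1427, 1026 of 1154 and 317 of 397 values under alternatives kept their side of the threshold. Of 2216 levels of listed genes under alternatives, 170 moved by more than the spread between samples and 2046 did not. The planned test of interleukin-17 against Ifng cells was not run. With 295 cells in 4 samples, genes carried by few cells have the widest errors, and low depth can hide a Foxp3 or Lef1 UMI.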

Other observations

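Some activation and stress genes not described above differed in level between samples. Junb, an AP-1 subunit gene, stood at 814, 1107, 485 and 708 CPM in the effector-like cells of samples 1 to 4, and Cd69, an early activation and retention gene, at 782, 645, 226 and 439 CPM, lowest in sample 3. The heat shock genes Hspa1a and Hspa1b had at most 2 UMIs in any sample. Of the genes of at least 100 CPM in a sample, the largest ranges between samples belonged to the mucosal mast cell protease genes Mcpt2 and Mcpt1. Mcpt2 stood at 3684 CPM in sample 1, with 99.9% of those UMIs in 1 cell, and Mcpt1 at 2925 CPM, all of it in 1 cell.

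Il18r1, a receptor chain for interleukin-18, stood at 919, 510, 288 and 403 CPM, highest in sample 1. It was higher than in CD8 cells by a log2 fold of 2.26 (adjusted p = 0.000119 by edgeR, higher in 4 of 4 samples). Areg, the growth factor amphiregulin, stood at 19.5, 260, 112 and 31.2 CPM, with UMIs in 2, 14, 12 and 9 cells, and the interferon-induced gene Ifi27l2a at 508, 492, 392 and 315 CPM. Tgfbr2, a receptor chain for transforming growth factor β, was higher than in Foxp3-positive cells by a log2 fold of 1.70 (adjusted p = 5.56e-05 by edgeR, higher in 4 of 4 samples).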
